A study of Mus musculus with 6 samples.

Results

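The genes described here are 45 chaperones, folding enzymes and stress factors that keep proteins folded, taken by symbol from the 32285 genes counted in single-nucleus RNA sequencing of mouse brainstem. They were listed by known function, with earlier results of these data known. All 45 symbols were present in each of the 6 libraries. By the compartment in which the proteins work, 16 members belong to the endoplasmic reticulum (ER), 19 to the cytosol and 2 to mitochondria, and the other 8 are stress transcription factors and genes that these factors switch on. The nuclei came from the pons and medulla of wild-type (WT) C57BL6/J male mice, with no transgene named. The chronic intermittent hypoxia group (CIH, 3 libraries) breathed air of cycling oxygen content between postnatal days 22 and 43. In each cycle nitrogen was let in for 60 seconds until oxygen stood at 4.5 to 5.0%, and air then brought it back to 21% within 5 minutes, with 80 cycles over 8 hours a day for 21 days. The normoxia group (3 libraries) stayed in room air over the same days. The number of mice behind a library is not given in the sources used here, so the p-values below measure the spread between libraries, which may be technical.

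Proteins that enter the secretory pathway fold inside the ER with the help of Hspa5 (BiP), Hsp90b1 (GRP94), the lectins Calr and Canx and the protein disulphide isomerases, and proteins that fail to fold are drawn out and degraded. When unfolded protein builds up, the sensors Ire1, Perk and Atf6 start the unfolded protein response, in which Xbp1, Atf4 and Atf6 switch on chaperones, degradation factors and amino acid metabolism genes. In the cytosol, folding rests on the Hsp70 and Hsp90 machines and their J-domain and co-chaperone partners, some of which are also switched on by heat shock factor. Long-lived neurons and secretory or phagocytic cells are known to depend on these systems.

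For each library, raw counts of unique molecular identifiers (UMIs) were added up across the kept nuclei and within marker-gated cell classes. Levels are given as UMIs per 1000000 of that sum (CPM), in the order of replicates 1, 2 and 3. The deposited libraries held 26733243, 28534969 and 40750363 UMIs under CIH and 30260893, 37399822 and 46754345 UMIs in normoxia. Of 43836 barcodes, 40139 passed the filter, a minimum of 500 genes and a maximum of 5% mitochondrial UMIs. CIH library 1 and normoxia library 2 shared 1563 barcodes, with UMI totals correlated over these barcodes at r = 0.969 and a median 7.924 times higher in the CIH library, whereas other library pairs shared 3 to 38. These barcodes were dropped from normoxia library 2, which left 38976 nuclei. Libraries 1 and 2 of each group lay close together, with a chi-square per gene of 2.56 under CIH and 2.51 in normoxia, against 20.7 to 73.4 for all other pairs. CIH library 3 stood apart: its nuclei had a median of 0.3659% mitochondrial UMIs, against 0.0709 to 0.0955% in the other 5 libraries. Its share of ribosomal protein mRNA was 0.485% of UMIs, against 0.22 to 0.267% in the other 5, so the CIH medians below, and CIH log2 differences that lean on it, are also given without it. Gating on markers placed 23854 nuclei in 8 classes with at least 20 nuclei in every library, and these included cerebellar granule neurons, which the tissue label does not name. That each class carried its own markers is fixed by the gate. For example, the 10 microglial markers summed to 10159.6 to 11483.5 CPM under CIH and 10286.6 to 11206.0 CPM in normoxia in microglia. Neuronal markers were not at 0 in glia: the 10 summed gave 892.2 to 1279.4 CPM under CIH and 1071.1 to 1618.2 CPM in normoxia in microglia, and at least 7838.7 CPM in inhibitory neurons. The part of such RNA from other cells in the class levels was not tested.

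The clearest pattern among the members was between cell classes. Microglia and endothelial cells carried the highest summed ER chaperone level, and the 3 neuronal classes the lowest. Summed over the 16 ER members, microglia had 1148.7 ± 112.0 CPM (mean ± SD over 6 libraries) and endothelial cells 1050.3 ± 220.0 CPM. Astrocytes had 645.8 ± 32.9 CPM, oligodendrocyte precursors 608.5 ± 78.5 CPM and oligodendrocytes 572.4 ± 37.3 CPM. Inhibitory neurons stood at 502.1 ± 17.0 CPM, excitatory neurons at 496.6 ± 14.7 CPM and granule neurons at 455.3 ± 24.8 CPM. In this order, the gap from microglia to endothelial cells, and each gap from astrocytes through precursors to oligodendrocytes, was smaller than the SD of the wider group of each pair. The 19 cytosolic members gave another order. Endothelial cells led with 1804.9 ± 287.0 CPM, and the other 7 classes lay between 785.3 ± 129.0 CPM in astrocytes and 947.3 ± 243.0 CPM in microglia, a gap smaller than the microglial SD. The ratio of the ER sum to the cytosolic sum was 1.29 ± 0.349 in microglia, against class means of 0.569 to 0.841 elsewhere. The microglial ratio was 1.21, 1.6 and 0.674 in CIH libraries, against 1.55, 1.5 and 1.18 in normoxia libraries, so CIH library 3 was the lowest. These sums are descriptions without a test. They are shares of a class's UMIs, not amounts per nucleus. Library medians of UMIs per nucleus were 1184 to 1882.5 in microglia and 2031 to 9959 in the 3 neuronal classes. Ribosomal protein mRNA was 0.486 to 0.868% of UMIs in microglia and 0.172 to 0.486% in neuronal classes. Mitochondrially encoded RNA was 0.214 to 0.565% and 0.0476 to 0.359%. The part of these differences in the class levels was not tested.

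**Figure D1:**
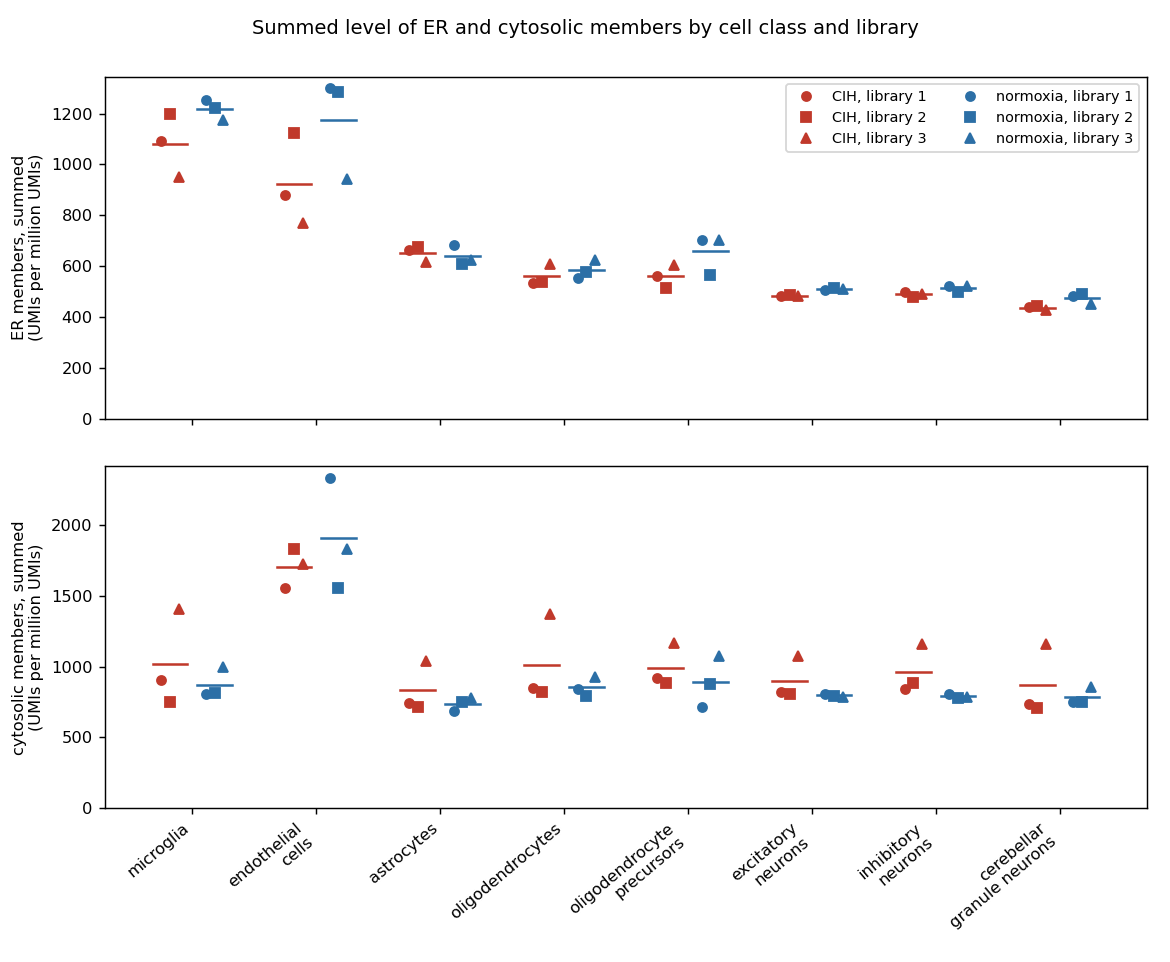
Summed UMIs per 1000000 (CPM, linear axes) of the 16 ER members and of the 19 cytosolic members in 8 cell classes, one point per library, CIH and normoxia libraries in separate colours. ER sums were highest in microglia (1148.7 ± 112.0 CPM) and endothelial cells (1050.3 ± 220.0 CPM), and cytosolic sums in endothelial cells (1804.9 ± 287.0 CPM).

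Each class was tested against the mean of the other 7 with edgeR's quasi-likelihood test, the library as a block and Benjamini-Hochberg adjustment over all 13900 genes tested, and a gene was called at an adjusted p under 0.05. The log2 difference compares the class with the mean of the other classes' log2 levels. It also carries scaling factors by the trimmed mean of M-values (TMM), which ran from 1.04 to 1.36 in endothelial cells, so it need not equal the ratio of CPM values. Of the 45 members, 39 passed the low-count filter of this fit, among them all 16 ER members. In microglia 17 of the 39 were higher and 5 lower, where 29.4% of all genes tested were higher and 27.7% lower, or 57.1% called. The split was uneven between compartments: 10 of 16 ER members were higher in microglia and none lower, with a median log2 difference of 0.89, against −0.02 over all genes. Of the 16 cytosolic members tested in microglia, 3 were higher and 5 lower. Of the 5 stress factors tested, 4 were higher.

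**Figure D2:**
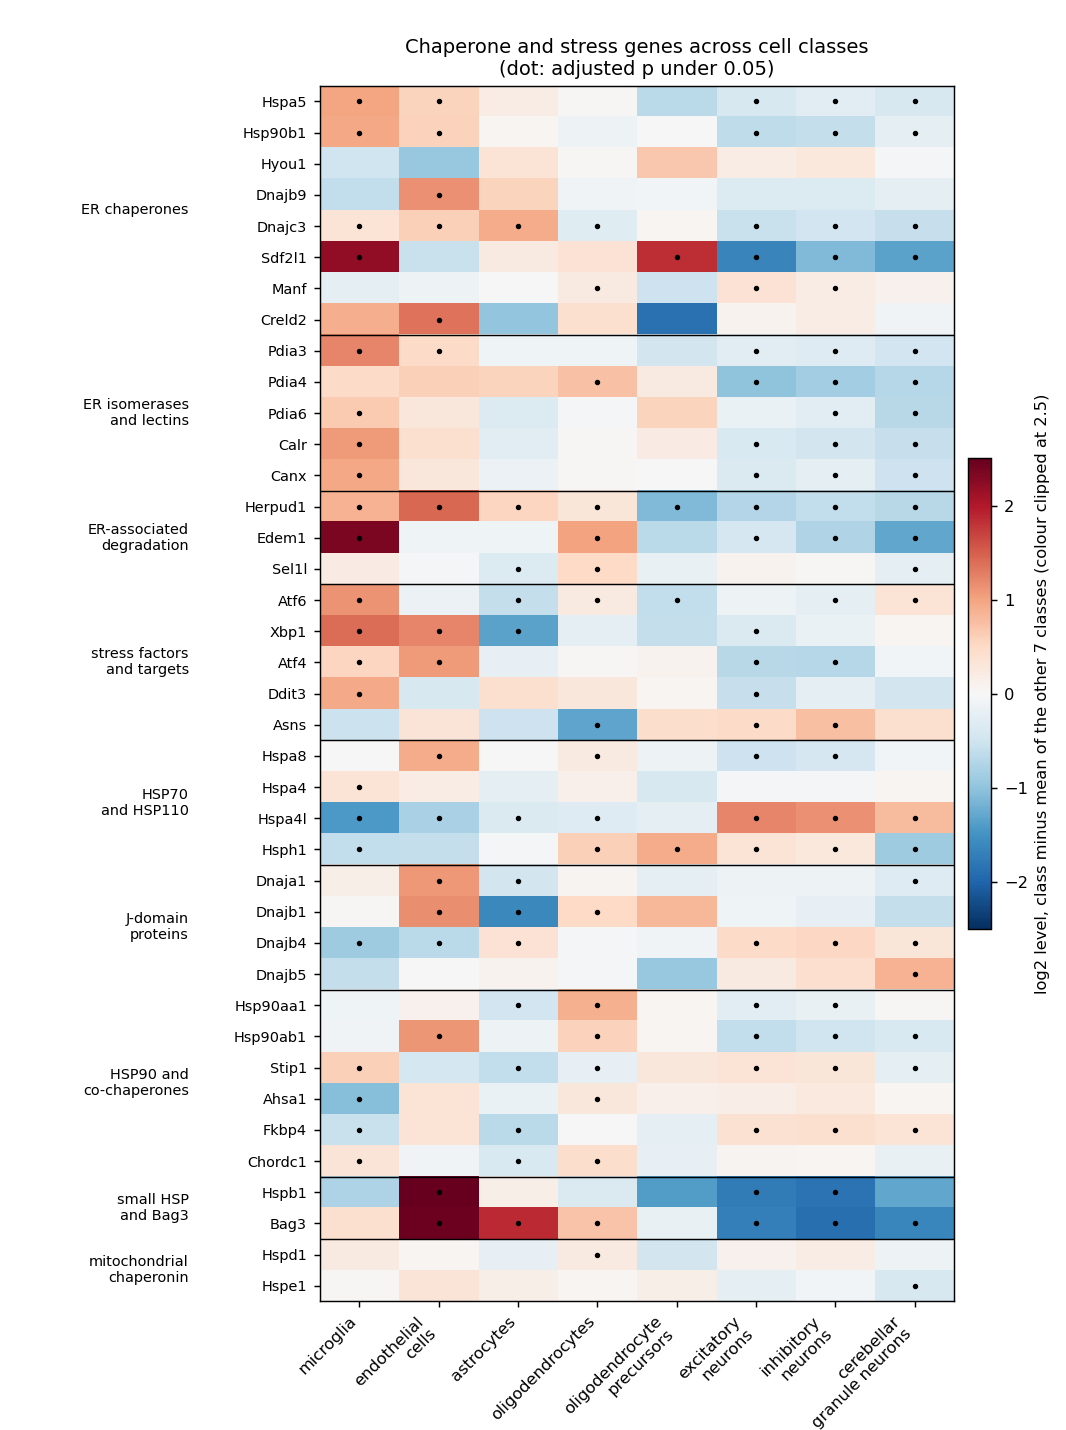
Log2 difference of each of the 39 members tested (rows, grouped by compartment) between a class (columns) and the mean of the other 7, with colour running from lower to higher and clipped at 2.5 either way, and a dot where adjusted p is under 0.05. Microglia show 10 of 16 ER members higher and none lower, while granule neurons show 12 of 16 lower and none higher.

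Among the ER members the widest gap in microglia was that of Edem1, a lectin-like factor that takes misfolded glycoproteins toward degradation. It had 117.4, 106.6 and 70.3 CPM under CIH and 121.6, 104.7 and 110.5 CPM in normoxia in microglia, against class means of 9.75 to 35.1 CPM in the other 7 (log2 difference 2.36 ± 0.14, SE, adjusted p = 2.75e-23). All 6 microglial values lay above every other class mean. Herpud1, a membrane scaffold of the degradation complex, was also higher in microglia, with 53.7, 45.7 and 40.6 CPM under CIH and 41.4, 84.1 and 65.9 CPM in normoxia (log2 difference 0.86 ± 0.163, adjusted p = 6.48e-06), although its endothelial mean was higher at 87.1 ± 20.2 CPM. Sel1l, the adaptor of the ER ubiquitin ligase, was not called in microglia. Microglial Sdf2l1, a partner of BiP and its J-domain proteins, had a log2 difference of 2.22 ± 0.368 (adjusted p = 4.15e-07), on a low level of 10.1, 9.14 and 2.7 CPM under CIH and 16.6, 14.4 and 12.5 CPM in normoxia. Hspa5 itself, the ER Hsp70, had 87.2, 76.1 and 40.6 CPM under CIH and 93.9, 78.0 and 80.2 CPM in normoxia in microglia, against class means of 25.9 to 68.3 CPM elsewhere (log2 difference 0.99 ± 0.14, adjusted p = 9.64e-09). CIH library 3 gave the lowest microglial value of Edem1, Sdf2l1 and Hspa5.

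Among the folding enzymes, Pdia3, the disulphide isomerase that works with the lectin chaperones, had 97.3, 140.1 and 113.6 CPM under CIH and 152.0, 158.0 and 128.3 CPM in normoxia in microglia, against class means of 38.9 to 105.0 CPM elsewhere (log2 difference 1.22 ± 0.104, adjusted p = 2.52e-16). Canx, the membrane-bound lectin chaperone, had 157.6, 194.9 and 175.8 CPM under CIH and 234.9, 205.2 and 188.9 CPM in normoxia in microglia (log2 difference 0.97 ± 0.0934, adjusted p = 3.26e-14). The soluble lectin Calr differed by 1.07 ± 0.149 (adjusted p = 6.78e-09) and the isomerase Pdia6 by 0.65 ± 0.163 (adjusted p = 0.000437). Hsp90b1, the ER Hsp90, differed by 0.97 ± 0.101 (adjusted p = 4.85e-13), with 124.1, 188.8 and 156.9 CPM under CIH and 160.3, 166.2 and 162.2 CPM in normoxia. Dnajc3, a J-domain co-chaperone of BiP, was nearer to the other classes, at 0.34 ± 0.122 (adjusted p = 0.0141). Microglia also had more of the mRNA of both ER stress factors that reach the nucleus by cleavage or splicing. Atf6, a membrane-held factor freed by proteolysis, had 244.8, 219.3 and 186.6 CPM under CIH and 265.3, 203.1 and 169.3 CPM in normoxia in microglia, against class means of 64.3 to 109.8 CPM elsewhere (log2 difference 1.12 ± 0.0821, adjusted p = 4.43e-19). Xbp1, whose mRNA Ire1 splices, had 30.2, 57.9 and 21.6 CPM under CIH and 49.7, 32.8 and 65.9 CPM in normoxia (log2 difference 1.39 ± 0.178, adjusted p = 4.62e-10). Gene sums do not separate spliced from unspliced Xbp1.

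The promoters of several of these ER genes carry the ER stress element (ERSE), the letters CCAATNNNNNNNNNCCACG that Atf6 and the factor NF-Y are known to bind together. Promoters here are windows of 300 bases, 250 before and 50 after the RefSeq start, in GRCm38.p6, and 39 of the 45 members matched the promoter table. A gene was counted if any of its windows held a match. Searched on both strands, the ERSE occurred in 7 of the 14 ER members matched and in 37 of all 27025 genes with windows (0.137%). ERSE-II, ATTGGNCCACG, occurred in Herpud1 and in 0.0444% of these genes. The members were listed as known genes of this response, so their shares beside those of all genes are descriptions and no test. Matches of different motifs did not overlap in the stretches shown. The stretches below run 5′ to 3′ on the gene's strand with the match in capitals, and are shown because all but Creld2 were among the 10 ER members higher in microglia. They are Hspa5 (chr2:34772005-34772063, + strand), Calr (chr8:84847055-84847113, - strand), Canx (chr11:50325780-50325838, - strand), Pdia6 (chr12:17266471-17266529, + strand), Dnajc3 (chr14:118937807-118937865, + strand), Creld2 (chr15:88819500-88819558, + strand) and Herpud1 (chr8:94386357-94386407, + strand). Hsp90b1 holds 2 matches within Hsp90b1 (chr10:86705513-86705676, - strand).
Hspa5: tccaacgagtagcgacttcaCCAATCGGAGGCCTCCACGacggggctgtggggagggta
Calr: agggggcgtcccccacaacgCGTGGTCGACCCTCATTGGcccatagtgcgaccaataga
Canx: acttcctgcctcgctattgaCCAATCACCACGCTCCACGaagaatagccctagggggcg
Pdia6: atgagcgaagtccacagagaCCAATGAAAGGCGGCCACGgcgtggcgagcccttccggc
Dnajc3: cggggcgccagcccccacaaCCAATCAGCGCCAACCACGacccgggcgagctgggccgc
Creld2: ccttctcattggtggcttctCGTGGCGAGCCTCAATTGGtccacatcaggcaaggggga
Herpud1: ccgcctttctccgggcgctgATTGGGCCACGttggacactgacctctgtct
Hsp90b1: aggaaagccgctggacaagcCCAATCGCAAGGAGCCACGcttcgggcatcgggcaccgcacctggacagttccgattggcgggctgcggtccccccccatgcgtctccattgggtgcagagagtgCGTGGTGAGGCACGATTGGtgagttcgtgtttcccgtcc
The matches in Calr and Creld2 and the second match in Hsp90b1 read in the opposite orientation. None of the 16 cytosolic members matched had an ERSE. The unfolded protein response element TGACGTGG was in none of the 39 members matched and in 0.714% of all genes with windows. A C/EBP-ATF response element, TGATGNAA, was in Asns, Chac1, Trib3 and Herpud1, and in 4.51% of all genes with windows. Of the genes with an ERSE, Creld2 was not called in microglia, and Edem1, Pdia3 and Sdf2l1, which were higher there, showed no match in these windows.

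Fewer cytosolic members were higher in microglia. Stip1, which links Hsp70 to Hsp90, differed by 0.59 ± 0.139 (adjusted p = 0.000249), and Hspa4, an Hsp110-type exchange factor, by 0.35 ± 0.097 (adjusted p = 0.00142). The related exchange factor Hspa4l was the lowest relative to other classes, with 40.2, 18.3 and 56.8 CPM under CIH and 30.4, 41.0 and 28.5 CPM in normoxia in microglia, against class means of 52.6 to 148.7 CPM elsewhere (log2 difference −1.44 ± 0.161, adjusted p = 5.84e-12). Ahsa1, the activator of the Hsp90 ATPase, was lower (log2 difference −1.07 ± 0.273, adjusted p = 0.000594), as was the J-domain protein Dnajb4, at −0.89 ± 0.172 (adjusted p = 9.25e-06). With class totals in place of TMM, where the median of all genes in microglia moved from −0.02 to 0.19, 22 members were higher and 3 lower, and calls over all genes were 62.0% higher instead of 51.5%. With relative log expression (RLE) factors 14 were higher and 5 lower. The 9 or more ER members called in microglia under each of these scalings were all higher.

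Endothelial cells shared part of this profile and added cytosolic chaperones: 15 of 39 members were higher and 2 lower, where 22.5% of all genes were higher and 22.6% lower, or 45.1% called. The 7 ER members called were all higher, as were 6 of the 8 cytosolic members called. Hspb1 (Hsp27), a small heat shock protein that holds unfolded clients and binds actin, set this class apart with 255.5, 340.8 and 148.6 CPM under CIH and 537.2, 200.4 and 182.6 CPM in normoxia. In the other 7 tested classes its mean was 0.526 to 2.56 CPM (log2 difference 7.28 ± 0.3, adjusted p = 4.96e-31), so it was at or near 0 there. Even the lowest endothelial value exceeded every value of the other tested classes, while the endothelial values themselves spread widely in both groups. Bag3, a co-chaperone that couples Hsp70 and small heat shock proteins to autophagy, had 51.1, 33.2 and 50.5 CPM under CIH and 56.5, 66.8 and 30.4 CPM in normoxia (log2 difference 2.45 ± 0.285, adjusted p = 4.15e-11). Its mean was 2.59 to 3.7 CPM in the 3 neuronal classes.

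The main cytosolic chaperones were also higher in endothelial cells. Hsp90ab1, the constitutive Hsp90, had 344.9, 407.2 and 375.7 CPM under CIH and 565.5, 434.3 and 433.8 CPM in normoxia, against class means of 109.6 to 202.5 CPM elsewhere (log2 difference 1.1 ± 0.108, adjusted p = 1.41e-13). Hspa8, the constitutive Hsp70, had 204.4, 224.4 and 298.6 CPM under CIH and 381.7, 250.6 and 342.4 CPM in normoxia (log2 difference 0.92 ± 0.121, adjusted p = 2.35e-09). Its J-domain partner Dnaja1 differed by 1.08 ± 0.127 (adjusted p = 5.78e-11) and Dnajb1 by 1.17 ± 0.423 (adjusted p = 0.0195). Hsp90aa1, the stress-inducible Hsp90, was not called in endothelial cells (log2 difference 0.1 ± 0.119, adjusted p = 0.553). Among ER members Herpud1 had 121.4, 74.8 and 72.9 CPM under CIH and 84.8, 100.2 and 68.5 CPM in normoxia (log2 difference 1.44 ± 0.196, adjusted p = 5.27e-09), and Hsp90b1 differed by 0.57 ± 0.146 (adjusted p = 0.000879). Xbp1 and Atf4, the factor translated under the integrated stress response, differed by 1.22 ± 0.242 and 1.07 ± 0.272 (adjusted p = 2.2e-05 and 0.000824). Hspa4l and Dnajb4 were lower, as in microglia. Ribosomal protein mRNA was 0.956 to 1.23% of endothelial UMIs under CIH and 1.25 to 1.67% in normoxia, above the at most 0.868% of microglia, and mitochondrially encoded RNA was 1.27 to 2.18% and 1.12 to 1.52%. The part of these shares in the endothelial levels was not tested. With replicates 1 and 2 of each group alone 11 members were called in endothelial cells, against 17 with all libraries. With class totals alone, which moved the median of all genes from −0.11 to 0.12 and the share of calls that were higher from 49.9 to 63.8%, 20 were higher and 1 lower.

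In astrocytes 4 of 39 members were higher and 10 lower, where 23.1% of all genes were higher and 18.6% lower, or 41.7% called. Bag3 had 39.3, 31.0 and 20.7 CPM under CIH and 34.5, 40.0 and 24.3 CPM in normoxia (log2 difference 1.86 ± 0.262, adjusted p = 1.11e-08) and Dnajc3 174.2, 110.6 and 99.9 CPM under CIH and 116.3, 83.3 and 113.3 CPM in normoxia (log2 difference 0.93 ± 0.121, adjusted p = 1.39e-09). All 4 members higher in astrocytes, which also included Herpud1 and Dnajb4, were higher in at least 1 other class too. Xbp1 was lower in astrocytes, with 11.2, 8.84 and 6.66 CPM under CIH and 8.61, 3.33 and 8.09 CPM in normoxia (log2 difference −1.33 ± 0.299, adjusted p = 0.000168). These astrocyte calls rest on 47 to 496 nuclei per library, and without CIH library 3, which held the most, 7 members were called, against 14 with all libraries. With replicates 1 and 2 alone 4 were called. In oligodendrocytes 15 members were higher and 4 lower (35.7 and 29.5% of all genes, 65.2% called). Hsp90aa1 had 159.5, 156.4 and 284.8 CPM under CIH and 151.4, 146.0 and 162.0 CPM in normoxia in oligodendrocytes, against class means of 90.1 to 150.8 CPM elsewhere (log2 difference 0.88 ± 0.0561, adjusted p = 4.15e-22). Edem1 differed by 1.0 ± 0.105 (adjusted p = 5.92e-13) and Sel1l by 0.49 ± 0.0621 (adjusted p = 3.19e-10). Edem1 was thus higher in microglia and oligodendrocytes, and it was lower in excitatory (−0.42 ± 0.133), inhibitory (−0.75 ± 0.136) and granule neurons (−1.3 ± 0.171). Asns, the asparagine synthetase induced by Atf4, was lower in oligodendrocytes, at −1.32 ± 0.201 (adjusted p = 4.2e-08). The oligodendrocyte split depends on scaling: with RLE factors the median of all genes moved from 0.03 to −0.13, 42.8% instead of 54.7% of calls were higher, and 8 members were higher and 7 lower. With class totals alone the median was −0.22, 36.4% of calls were higher, and 8 members were higher and 14 lower. Oligodendrocyte precursors had 21 to 117 nuclei per library and 4 members called, with Sdf2l1 and Hsph1 higher and Atf6 and Herpud1 lower (12.5% of all genes higher, 10.7% lower, 23.2% called). Without CIH library 3 only 1 member was called in precursors.

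Neurons were low in most ER members, relative to a mean that includes microglia and endothelial cells, the classes with the highest ER sums. In excitatory neurons 7 of 39 members were higher and 18 lower (35.7 and 28.8% of all genes, 64.4% called). In inhibitory neurons the counts were 7 and 18 (35.9 and 29.3%, 65.1% called), and in granule neurons 5 and 18 (28.7 and 23.5%, 52.2% called). Of the 16 ER members, 10 were lower in excitatory, 11 in inhibitory and 12 in granule neurons, and 1, 1 and 0 were higher. The ER member higher in both excitatory and inhibitory neurons was Manf, a secreted survival factor for neurons that also binds BiP. It had 49.5, 63.4 and 58.2 CPM under CIH and 64.5, 67.1 and 69.8 CPM in normoxia in excitatory neurons (log2 difference 0.36 ± 0.0773, adjusted p = 5.12e-05) and 55.1, 53.3 and 52.0 CPM under CIH and 59.3, 58.9 and 63.8 CPM in normoxia in inhibitory neurons (0.18 ± 0.0777, adjusted p = 0.0339). With class totals alone 0 ER members were called higher in inhibitory neurons and 1 in excitatory neurons. Hsp90b1 was lower in all 3 neuronal classes, with log2 differences of −0.63 ± 0.0761 in excitatory, −0.6 ± 0.0743 in inhibitory and −0.24 ± 0.0834 in granule neurons. Dnajc3 differed by −0.55 ± 0.0808, −0.48 ± 0.0786 and −0.57 ± 0.094 in the same order.

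Neurons instead carried Hspa4l, the exchange factor that was lowest in microglia. It had 133.8, 147.3 and 153.1 CPM under CIH and 153.8, 149.9 and 154.1 CPM in normoxia in excitatory neurons (log2 difference 1.22 ± 0.071, adjusted p = 1.15e-23). In inhibitory neurons it had 142.4, 141.2 and 147.4 CPM under CIH and 155.1, 140.9 and 145.2 CPM in normoxia (log2 difference 1.15 ± 0.0708, adjusted p = 1.52e-22), and in granule neurons the difference was 0.79 ± 0.0819 (adjusted p = 6.12e-13). The values of excitatory and inhibitory neurons overlapped, and their 12 values all lay above the 6 of microglia. Dnajb4 was higher in all 3 neuronal classes and Fkbp4, an Hsp90-bound immunophilin of steroid receptors, likewise. Stip1 and Hsph1 were higher in excitatory and inhibitory neurons and lower in granule neurons. Asns was higher in inhibitory neurons by 0.75 ± 0.164 (adjusted p = 6.11e-05). Hspa8 and Hsp90ab1, by contrast, were lower, in excitatory neurons at −0.52 ± 0.0735 and −0.62 ± 0.0791 and in inhibitory neurons at −0.42 ± 0.0717 and −0.5 ± 0.0777. These last values are relative to a mean that includes endothelial cells.

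Further genes of the same pathways, listed by function, were tested in the same fit. Of the 44 other ER stress genes and 49 other cytosolic and mitochondrial chaperone genes in the files, 38 and 44 passed the filter. Of the 38 ER stress genes, 20 were higher and 1 lower in microglia, where 29.4% of all genes were higher and 27.7% lower. In oligodendrocytes 21 and 4 were (35.7 and 29.5% of all genes), in endothelial cells 11 and 3 (22.5 and 22.6%), and in astrocytes 7 and 5 (23.1 and 18.6%). In excitatory neurons 4 were higher and 25 lower (35.7 and 28.8%), in inhibitory neurons 6 and 24 (35.9 and 29.3%), in granule neurons 6 and 13 (28.7 and 23.5%), and in precursors 1 and 4 (12.5 and 10.7%). Their median log2 difference was 0.54 in microglia and −0.43 in excitatory neurons, against −0.02 and 0.02 over all genes. Of the 44 cytosolic and mitochondrial chaperone genes, 14 were higher and 6 lower in microglia. The share higher was near that of all genes (29.4%), and the share lower was under it (27.7%). In endothelial cells 14 and 3 were, and in oligodendrocytes 18 and 7. The oligodendrocyte counts depended on scaling: with RLE factors 15 ER stress genes were higher and 9 lower, and 12 and 10 chaperone genes, while with class totals alone the counts were 13 and 10, and 8 and 11. In neurons the cytosolic list was more evenly split than the ER stress list, but still had more genes lower than higher. The counts were 11 higher and 19 lower in excitatory, 9 and 18 in inhibitory, and 8 and 9 in granule neurons. Over all genes more were higher than lower in each of these 3 classes. Astrocytes had 1 higher and 9 lower, and precursors 0 and 4.

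The study's own contrast, CIH against normoxia, asked what intermittent hypoxia does to brainstem cells. No member passed the test in any class or in all nuclei: edgeR's quasi-likelihood test called 0 members at an adjusted p under 0.05, and DESeq2 also 0. Few genes of any kind were called, namely 0.00509% of 19644 genes in all nuclei, 0.00728% in inhibitory neurons, 0.00749% in oligodendrocytes, 0.0542% in precursors and 0.0% in the other 5 classes. Without CIH library 3 the test called 545 genes in all nuclei instead of 1. The CIH libraries then left were the close pair, with a chi-square per gene of 2.56, and held the highest shares of granule neurons. What raised the count was not tested. In all nuclei 44 of the 45 members passed the low-count filter, and 0 had an unadjusted p under 0.05, against 11.1% of all genes. At that level 9 of 38 members tested were found in inhibitory neurons, where 7.02% of all genes were, and 3 of 38 in excitatory neurons (6.98%). Astrocytes (6.14%), granule neurons (4.47%) and endothelial cells (6.51%) had 1 each, and microglia (4.1%), precursors (4.72%) and oligodendrocytes (5.49%) had 0. In all nuclei the fitted difference was positive for 16 of 18 cytosolic members (median log2 difference 0.24) and for 4 of 16 ER members (median −0.06), against a median of 0.01 over all genes. Without CIH library 3 it was positive for 9 of 18 cytosolic members (median 0.03) and for 0 of 16 ER members (median −0.11), against −0.01 over all genes. By class the cytosolic median was 0.26 in microglia, 0.24 in astrocytes, 0.23 in oligodendrocytes, 0.2 in inhibitory, 0.11 in granule and 0.02 in excitatory neurons, and 0.58 over only 3 members in precursors. In endothelial cells it was −0.33, with 2 of 6 positive. Without CIH library 3 it was 0.14 in inhibitory neurons and 0.07 in precursors, and it lay between −0.28 in microglia and 0.01 in granule neurons in the other 6 classes. The ER median was negative in each of the 7 classes with ER members tested, between −0.3 in endothelial cells and −0.04 in inhibitory neurons. It was 0.12 in astrocytes and −0.16 to −0.01 in the other 6 when CIH library 3 was left out. These medians are descriptions without a test.

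The mix of cells in the all-nuclei sums also differed between the groups. The 10 endothelial markers summed to 129.0 to 422.5 CPM under CIH and 74.3 to 101.6 CPM in normoxia. The 8 fibroblast markers summed to 66.5 to 91.9 CPM under CIH and 37.2 to 45.5 CPM in normoxia, and the 9 mural cell markers to 40.1 to 131.3 CPM under CIH and 35 to 38.6 CPM in normoxia. Microglial markers were lower, at 212.8 to 302.0 CPM under CIH and 315.6 to 347.1 CPM in normoxia. None of the markers in these 4 lists was at 0. The 8 granule neuron markers summed to 1205.4, 1296.9 and 533.7 CPM under CIH and 553.8, 566.5 and 438.5 CPM in normoxia. Granule neurons were 18.1, 22.1 and 4.7% of kept CIH nuclei and 6.8, 7.4 and 4.9% of kept normoxia nuclei. Without CIH library 3, granule-rich CIH libraries are thus compared with normoxia. Microglia had the highest ER sum and granule neurons the lowest, and endothelial cells had the highest cytosolic sum. The part of this mix in the all-nuclei differences, with or without CIH library 3, was not tested.

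**Figure D3:**
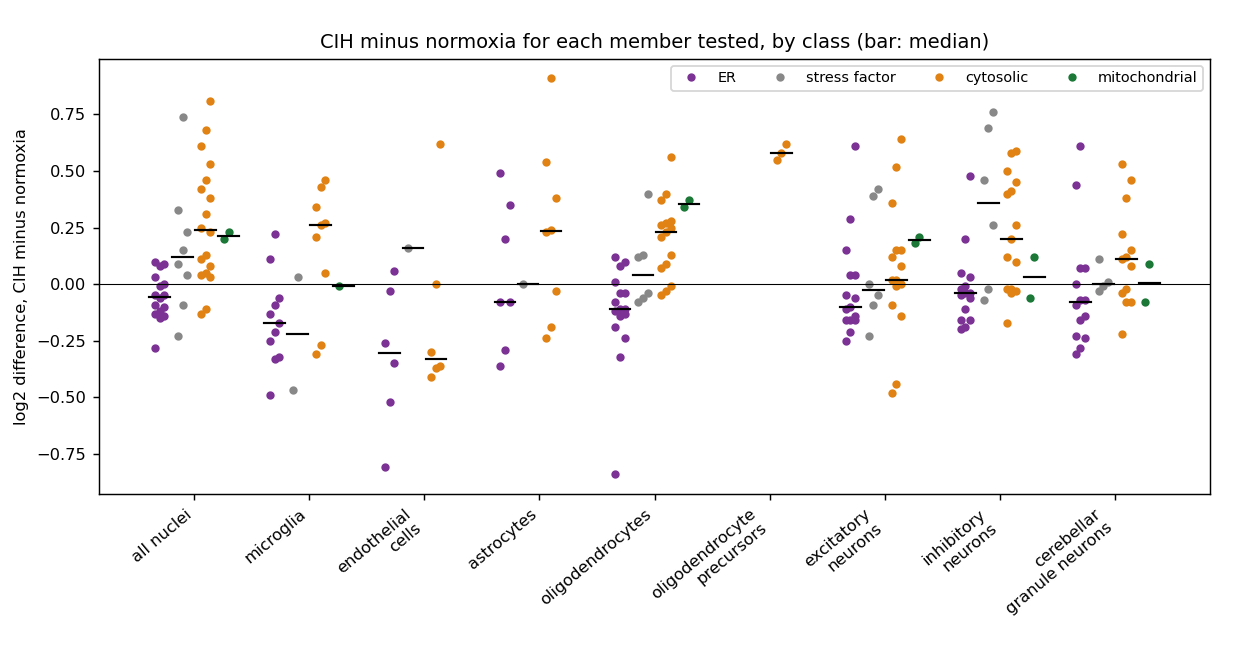
Log2 difference, CIH minus normoxia, of each member that passed the low-count filter (points) in all nuclei and 8 classes, by compartment, with a bar at the median. Cytosolic members centre on 0.24 and ER members on −0.06 in all nuclei (0.03 and −0.11 without CIH library 3), and none passed an adjusted p of 0.05.

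Of the cytosolic members with the highest levels, Hspa8, Hsp90aa1 and Hsp90ab1 had positive differences in all nuclei that shrank without CIH library 3. Hspa8 had 85.0, 86.7 and 203.4 CPM in the CIH libraries, against 77.4, 69.8 and 86.6 CPM in the normoxia libraries in all nuclei. CIH library 3 was far above the rest, the other 2 CIH libraries stood near the top of the normoxia range, and the groups overlapped (log2 difference 0.68 ± 0.342, SE, adjusted p = 0.498). Without CIH library 3 the difference was 0.12. Hsp90aa1 had 114.2, 114.0 and 229.1 CPM in the CIH libraries, against 97.0, 99.0 and 103.4 CPM in the normoxia libraries in all nuclei. All CIH values lay above all normoxia values, by a wide margin only in library 3 (log2 difference 0.61 ± 0.273, adjusted p = 0.469, and 0.17 without that library). Hsp90ab1 had 127.7, 125.7 and 250.1 CPM in the CIH libraries, against 125.4, 120.6 and 129.1 CPM in the normoxia libraries. Only CIH library 3 stood out, the groups overlapped (log2 difference 0.42 ± 0.266, adjusted p = 0.568), and without it the difference was −0.000269. The same library had the raised mitochondrial and ribosomal protein RNA shares given above, and their part in its chaperone levels was not tested.

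**Figure D4:**
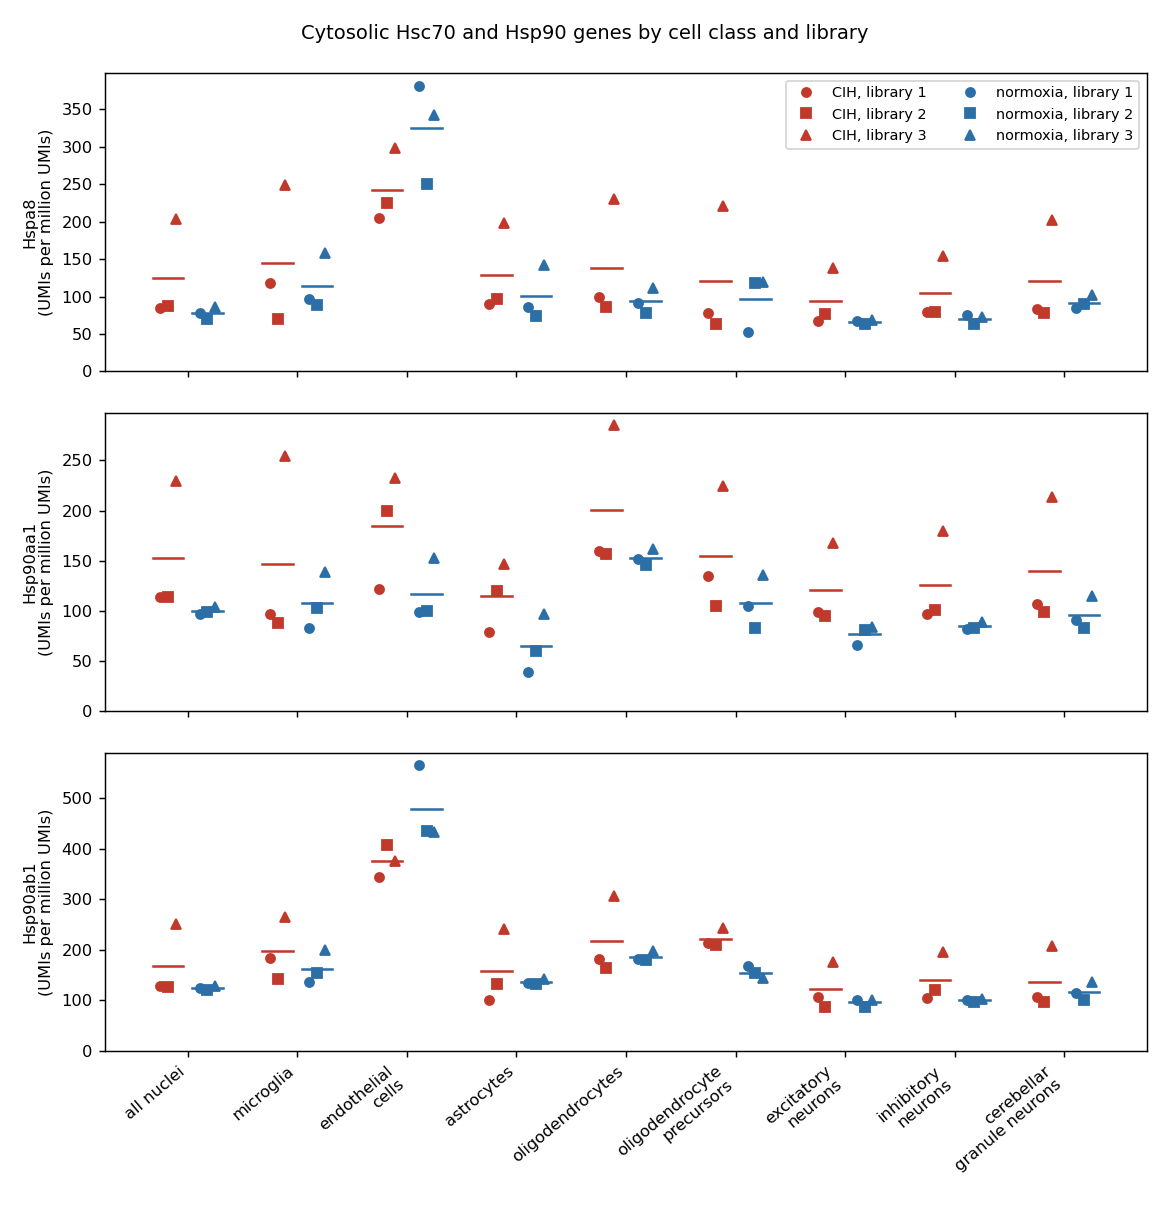
UMIs per 1000000 (CPM, linear axes) of Hspa8, Hsp90aa1 and Hsp90ab1 in all nuclei and 8 classes, one point per library, CIH left of normoxia. CIH library 3 is the highest CIH point for Hsp90aa1 in every class, and in endothelial cells all CIH values of Hsp90ab1 (344.9 to 407.2 CPM) lie under all normoxia values (433.8 to 565.5 CPM).

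By class, Hsp90aa1 had the smallest p of any member in astrocytes and in excitatory neurons. In excitatory neurons it had 98.6, 94.7 and 167.8 CPM in the CIH libraries, against 65.6, 81.0 and 84.1 CPM in the normoxia libraries. The groups did not overlap, and the log2 difference was 0.64 ± 0.195 (adjusted p = 0.574), or 0.29 without CIH library 3. In astrocytes it had 78.7, 119.4 and 146.5 CPM in the CIH libraries, against 38.8, 60.0 and 97.1 CPM in the normoxia libraries, where CIH library 1 fell inside the normoxia range (log2 difference 0.91 ± 0.311, adjusted p = 0.743, and 0.61 without CIH library 3). In inhibitory neurons it had 97.1, 100.6 and 179.2 CPM in the CIH libraries, against 81.8, 83.2 and 88.6 CPM in the normoxia libraries. Again every CIH value was the higher (log2 difference 0.58 ± 0.196, adjusted p = 0.595, and 0.19 without CIH library 3). Inhibitory neurons were the class with the most such members: 10 of the 38 members with at least 30 UMIs had all CIH values above all normoxia values, where 6.55% of genes did, and 2 had all below, where 5.3% did. The 10 were Ddit3, Asns, Hspa8, Hspa4, Dnaja1, Dnajb5, Hsp90aa1, Hsp90ab1, Fkbp4 and Chordc1, and the 2 were Dnajc3 and Manf. In all nuclei the counts were 4 of 45 above and 3 below, where 9.68 and 8.89% of genes were, and in excitatory neurons 3 and 2 of 39 (6.78 and 4.93%). The other classes had at most 3 such members in a direction. Astrocytes had 1 above and 1 below of 31 (5.35 and 5.21%), and granule neurons 0 and 2 of 38 (4.79 and 5.39%). Endothelial cells had 0 and 1 of 29 (6.59 and 4.85%), and microglia 1 and 0 of 30 (5.04 and 5.1%). Precursors had 1 and 3 of 19 (5.62 and 4.04%), and oligodendrocytes 0 and 1 of 41 (6.63 and 4.72%).

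The smallest member p in inhibitory neurons belonged to Dnaja1, the J-domain partner of Hspa8. It had 69.5, 65.3 and 95.6 CPM in the CIH libraries, against 56.0, 53.8 and 59.4 CPM in the normoxia libraries. The groups did not overlap (log2 difference 0.45 ± 0.145, adjusted p = 0.577), and without CIH library 3 the difference was 0.22. Hspa8 there had 78.8, 79.1 and 154.2 CPM in the CIH libraries, against 75.6, 62.8 and 72.0 CPM in the normoxia libraries. Its first 2 CIH values lay only just above the highest normoxia value (log2 difference 0.59 ± 0.22, adjusted p = 0.658, and 0.14 without CIH library 3). Hsp90ab1 there had 105.5, 119.7 and 195.5 CPM in the CIH libraries, against 100.6, 96.6 and 102.8 CPM in the normoxia libraries (log2 difference 0.5 ± 0.184, adjusted p = 0.658, and 0.14 without CIH library 3). The other inhibitory members under an unadjusted p of 0.05 were Fkbp4, Stip1, Asns, Ddit3 and Sesn2, with log2 differences of 0.4 ± 0.145, 0.26 ± 0.119, 0.46 ± 0.193, 0.69 ± 0.296 and 0.76 ± 0.345. That of Fkbp4 was 0.25 and that of Ddit3 0.33 without CIH library 3. In excitatory neurons Hspa8 had 67.6, 76.5 and 138.6 CPM in the CIH libraries, against 67.0, 63.4 and 68.2 CPM in the normoxia libraries, and its first CIH value lay inside the normoxia range (log2 difference 0.52 ± 0.213, adjusted p = 0.677, and 0.09 without CIH library 3).

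The other cytosolic members did not pass the test either. The exchange factor Hspa4 had 83.8, 84.1 and 92.6 CPM in the CIH libraries, against 87.6, 84.1 and 78.6 CPM in the normoxia libraries in all nuclei. Hspa4l had 105.8, 107.8 and 116.9 CPM in the CIH libraries, against 113.0, 114.6 and 125.5 CPM in the normoxia libraries. Both had overlapping groups. Dnaja1 had 62.1, 63.1 and 95.1 CPM in the CIH libraries, against 59.0, 55.2 and 62.7 CPM in the normoxia libraries in all nuclei, with CIH library 3 again the highest (log2 difference 0.31 ± 0.177, adjusted p = 0.532, and 0.07 without CIH library 3). Dnajb4 had 49.1, 46.2 and 49.0 CPM in the CIH libraries, against 52.0, 52.1 and 52.3 CPM in the normoxia libraries, and every CIH value was lower. Chordc1, an Hsp90 co-chaperone, had 56.9, 55.3 and 60.2 CPM in the CIH libraries, against 56.5, 53.6 and 58.2 CPM in the normoxia libraries, with overlapping groups. Fkbp4 had 27.5, 26.5 and 34.1 CPM in the CIH libraries, against 25.0, 25.1 and 24.6 CPM in the normoxia libraries, without overlap. Hsph1, Dnajb1, Stip1 and Ahsa1 had 4.9 to 55.5 CPM in the CIH libraries and 5.12 to 44.5 CPM in the normoxia libraries, all with overlap. Stip1 had the smallest p of any member in microglia, where it had 90.6, 76.1 and 89.3 CPM in the CIH libraries, against 58.0, 61.6 and 64.2 CPM in the normoxia libraries. Every CIH value was the higher, with a log2 difference of 0.46 ± 0.226 (adjusted p = 1.0). The J-domain protein Dnajb5 had 9.46, 9.7 and 6.96 CPM in the CIH libraries, against 7.13, 7.26 and 7.27 CPM in the normoxia libraries in all nuclei, with CIH library 3 the lowest. In oligodendrocyte precursors the smallest p was that of Hsp90ab1, with 212.8, 210.2 and 243.0 CPM in the CIH libraries, against 168.1, 153.5 and 143.6 CPM in the normoxia libraries. The groups did not overlap there either (log2 difference 0.55 ± 0.294, adjusted p = 0.973).

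Small heat shock proteins and Bag3 were low over all nuclei. Hspb1 had 2.94, 2.51 and 7.48 CPM in the CIH libraries, against 3.0, 1.76 and 2.68 CPM in the normoxia libraries. Hspb8, which works with Bag3, had 1.17, 1.17 and 2.76 CPM in the CIH libraries, against 1.5, 1.3 and 1.19 CPM in the normoxia libraries. Bag3 had 6.22, 6.9 and 10.7 CPM in the CIH libraries, against 6.3, 5.61 and 5.42 CPM in the normoxia libraries. For all 3, CIH library 3 was the highest. The log2 differences were 0.81 ± 0.446 for Hspb1, 0.46 ± 0.222 for Bag3 and 0.38 ± 0.374 for Hspb8, and without that library 0.12, 0.17 and −0.19 in the same order. CIH library 3 also held 488 endothelial nuclei, where CIH libraries 1 and 2 held 85 and 71 and the normoxia group 42, 38 and 103. Within endothelial cells Hspb1 values overlapped widely and CIH library 3 had the lowest, as given above. The mitochondrial chaperonin Hspd1 (Hsp60) had 28.3, 27.9 and 44.6 CPM in the CIH libraries, against 27.6, 28.7 and 31.3 CPM in the normoxia libraries. Its cap Hspe1 (Hsp10) had 19.4, 19.0 and 36.2 CPM in the CIH libraries, against 19.5, 17.1 and 26.9 CPM in the normoxia libraries. Both were highest in CIH library 3 and overlapped between groups. Their log2 differences were 0.2 ± 0.196 and 0.23 ± 0.296, and −0.08 and −0.16 without CIH library 3. The genes lie head to head and share a promoter, in which the heat shock element, searched as GAANNTTCNNGAA and TTCNNGAANNTTC on both strands, has 2 overlapping matches within Hspe1 (chr1:55088039-55088096, + strand). The stretch is printed because this pair shares it, with the matches in capitals.
Hspe1: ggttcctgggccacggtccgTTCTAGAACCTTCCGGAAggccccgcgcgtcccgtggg
The element was also in Chordc1 and Hsph1, and in 0.662% of all genes with windows. Hspa8, Hsp90aa1 and Hsp90ab1 are among the 6 members without an entry in the promoter table. Hspa1a and Hspa1b, the inducible Hsp70 pair, are near-identical and stayed under 1 CPM in all nuclei of every library, so their values are uncertain, and Hspa1b did not pass the filter.

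No ER member passed the test between CIH and normoxia in any class. Hsp90b1 had 54.8, 57.9 and 63.1 CPM in the CIH libraries, against 57.0, 60.0 and 64.1 CPM in the normoxia libraries in all nuclei, with overlapping groups. Dnajc3 had 48.5, 49.3 and 49.0 CPM in the CIH libraries, against 50.3, 53.2 and 52.3 CPM in the normoxia libraries. Manf had 58.7, 58.7 and 54.4 CPM in the CIH libraries, against 61.1, 59.0 and 67.4 CPM in the normoxia libraries. All 3 CIH values of Dnajc3 and of Manf were lower than the normoxia values, by a small margin. Hspa5 had 27.0, 29.5 and 33.7 CPM in the CIH libraries, against 31.6, 33.9 and 30.1 CPM in the normoxia libraries. Among lectin chaperones, Calr had 25.6, 26.1 and 33.1 CPM in the CIH libraries, against 27.9, 28.1 and 26.7 CPM in the normoxia libraries. Canx had 72.9, 69.3 and 98.1 CPM in the CIH libraries, against 78.8, 74.7 and 86.4 CPM in the normoxia libraries. For these 3 the groups overlapped, and CIH library 3 was the highest for Calr and Canx. Pdia3 had 46.0, 43.1 and 50.5 CPM in the CIH libraries, against 48.4, 46.4 and 50.2 CPM in the normoxia libraries, again with overlap. Of the degradation factors, Sel1l had 84.3, 82.8 and 65.6 CPM in the CIH libraries, against 89.4, 86.3 and 77.5 CPM in the normoxia libraries. CIH library 3 was the lowest for Sel1l, and the groups overlapped. Herpud1 had 20.6, 26.1 and 27.4 CPM in the CIH libraries, against 22.2, 23.9 and 23.6 CPM in the normoxia libraries. Edem1 had 20.1, 22.3 and 19.0 CPM in the CIH libraries, against 23.3, 21.1 and 19.0 CPM in the normoxia libraries. Neither separated the groups. The other 6 ER members, Hyou1, Dnajb9, Sdf2l1, Creld2, Pdia4 and Pdia6, had 1.42 to 27.0 CPM in the CIH libraries and 1.75 to 29.5 CPM in the normoxia libraries, all with overlap.

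Sums over the 16 ER members were lower in every CIH library in each of the 3 neuronal classes. In excitatory neurons they were 481.9, 484.9 and 483.0 CPM in the CIH libraries, against 506.0, 512.2 and 511.4 CPM in the normoxia libraries. The excitatory values were tight within groups. In granule neurons the sums were 440.3, 441.6 and 427.4 CPM in the CIH libraries, against 481.0, 490.2 and 451.4 CPM in the normoxia libraries. In inhibitory neurons they were 497.6, 480.1 and 491.8 CPM in the CIH libraries, against 522.7, 498.5 and 521.9 CPM in the normoxia libraries, where the highest CIH value lay just under the lowest normoxia value. In all nuclei they were 512.8, 521.6 and 558.0 CPM in the CIH libraries, against 552.0, 544.0 and 560.9 CPM in the normoxia libraries, and the groups overlapped. They also overlapped in every tested class that was not neuronal. In astrocytes the mean ER sum was higher under CIH, at 652.3 ± 31.3 CPM against 639.3 ± 40.0 CPM in normoxia. The cytosolic sums in all nuclei were 832.4, 830.5 and 1282.2 CPM in the CIH libraries, against 816.1, 790.9 and 832.5 CPM in the normoxia libraries, with CIH library 3 far above the rest and the other libraries close together. Stress factor sums were higher in every CIH library in all nuclei, at 145.0, 147.5 and 141.3 CPM, against 138.3, 135.9 and 138.4 CPM in normoxia. The same held in inhibitory neurons, at 136.9, 138.4 and 138.5 CPM, against 131.9, 128.3 and 120.4 CPM in normoxia. In the other tested classes the stress factor sums overlapped. How often sums over other genes separate the groups was not counted. These sums carry no test.

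Single ER members stood lower in CIH in some classes without passing the adjusted test. Sel1l had the smallest member p in granule neurons, with 60.8, 65.1 and 51.1 CPM in the CIH libraries, against 75.4, 77.1 and 69.4 CPM in the normoxia libraries. The groups did not overlap (log2 difference −0.31 ± 0.132, adjusted p = 0.932). Dnajc3 had it in endothelial cells, with 70.3, 157.9 and 74.3 CPM in the CIH libraries, against 155.5, 133.6 and 175.0 CPM in the normoxia libraries, where CIH library 2 lay inside the normoxia range (log2 difference −0.81 ± 0.366, adjusted p = 0.743, and −0.5 without CIH library 3). Endothelial sums rest on only 38 to 488 nuclei per library. Sdf2l1 had it in oligodendrocytes, with 2.68, 0.955 and 2.01 CPM in the CIH libraries, against 3.71, 3.53 and 2.76 CPM in the normoxia libraries (log2 difference −0.84 ± 0.378, adjusted p = 0.908), at a level of few UMIs and without overlap. In astrocytes all CIH values of Hspa5 were lower, with 22.5, 35.4 and 41.4 CPM in the CIH libraries, against 43.1, 43.3 and 48.6 CPM in the normoxia libraries (log2 difference −0.29 ± 0.356, adjusted p = 0.956, and −0.6 without CIH library 3). Those of Pdia3 were higher, with 73.1, 66.3 and 52.5 CPM in the CIH libraries, against 38.8, 43.3 and 44.5 CPM in the normoxia libraries (log2 difference 0.49 ± 0.32, adjusted p = 0.917). Astrocyte sums held 177932 to 300107 UMIs outside CIH library 3, so both genes rest on few UMIs in those libraries. Manf had 49.5, 63.4 and 58.2 CPM in the CIH libraries, against 64.5, 67.1 and 69.8 CPM in the normoxia libraries in excitatory neurons, again without overlap (log2 difference −0.25 ± 0.114, adjusted p = 0.709).

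No stress factor or target of the Atf4 arm passed the test. Atf6 had 97.2, 97.1 and 82.9 CPM in the CIH libraries, against 89.4, 89.0 and 89.4 CPM in the normoxia libraries in all nuclei. Xbp1 had 13.4, 14.2 and 14.7 CPM in the CIH libraries, against 14.9, 13.4 and 16.6 CPM in the normoxia libraries. Atf4 had 11.9, 13.9 and 17.2 CPM in the CIH libraries, against 13.1, 13 and 12.5 CPM in the normoxia libraries. In all 3 the groups overlapped, and CIH library 3 was the lowest for Atf6 and the highest for Atf4. Sesn2, an inhibitor of mTORC1 induced by Atf4 and p53, had the smallest member p in all nuclei, with 4.56, 3.82 and 4.62 CPM in the CIH libraries, against 3.7, 3.41 and 3.19 CPM in the normoxia libraries. Every CIH value was the higher (log2 difference 0.33 ± 0.148, adjusted p = 0.467). Asns had 11.6, 11.2 and 13.1 CPM in the CIH libraries, against 10.1, 10.3 and 9.95 CPM in the normoxia libraries, likewise without overlap, and in inhibitory neurons 17.4, 16.9 and 18.1 CPM in the CIH libraries, against 15.3, 13.2 and 10.0 CPM in the normoxia libraries (log2 difference 0.46 ± 0.193, adjusted p = 0.689). Ddit3 (Chop), the pro-apoptotic factor of the response, had 5.12, 5.84 and 7.88 CPM in the CIH libraries, against 6.06, 5.76 and 5.83 CPM in the normoxia libraries, with CIH library 3 the highest. Trib3 and Chac1, further targets of this arm, stayed under 1 CPM in all nuclei of every library.

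Whether a member's difference between CIH and normoxia varied among classes was tested in the same fit as the classes. No member passed: edgeR called 0 of 39, where 0.158% of 13900 genes were called, and 1 of 39, Hspa8, had an unadjusted p under 0.05 (adjusted p = 0.783). The count over all genes ran from 0 without normoxia library 1, and 2 without normoxia library 2, to 168 without CIH library 3, against 22 with all libraries. In the contrast of CIH with normoxia within classes, 0 genes of either further pathway list were called. The smallest p among other ER stress genes was that of Dnajc1, an ER J-domain protein, in all nuclei (log2 difference 0.21 ± 0.0542, adjusted p = 0.349). Among other cytosolic chaperones it was that of Fkbp5, a glucocorticoid-induced Hsp90 immunophilin, in microglia. Fkbp5 there had 540.0, 514.6 and 1082.0 CPM in the CIH libraries, against 251.4, 322.2 and 411.7 CPM in the normoxia libraries. The groups did not overlap (log2 difference 1.1 ± 0.27, adjusted p = 1.0, and 0.64 without CIH library 3).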

How the data were processed

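Nuclei of pons and medulla were sorted and sequenced with the 10x 3v3.1 kit, per the labels' protocols. The authors deposited raw UMI counts per gene and barcode for 6 libraries. They name mm10, Cell Ranger 3.1.0 and Seurat 4.0 in the submitters' processing notes, whereas the file headers give Cell Ranger 6.1.2. Whether introns were counted is not given in the sources used here.

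Kept nuclei had a minimum of 500 genes and a maximum of 5% mitochondrial UMIs, and the 1563 barcodes shared by CIH library 1 and normoxia library 2 were removed from normoxia library 2, which held fewer UMIs for them. Nuclei were gated by marker genes without clustering: non-neuronal classes needed 3 of their own markers and at most 4 of 10 neuronal ones, and neurons at least 5 neuronal markers and at most 3 of any other class. These thresholds were set after marker counts were seen. Doublets were not called in the main results, and 62.22% of nuclei were gated. UMIs were summed per library and class and tested over all genes with edgeR 4.0.16 in R 4.3.3 (quasi-likelihood F test, TMM, filterByExpr, Benjamini-Hochberg at 0.05), with library as a block between classes. Fits were tested on simulated data. Members and lists were chosen with earlier results of these data known. Values in every library are given for the 3 members of highest mean in each of 9 role groups, for members called under CIH, and for the member of smallest p per class. Of a further pathway list, the gene of smallest p is named. One symbol, Ddit3, stood on 2 gene IDs, of which the ID without UMIs was not used. Alternatives were DESeq2 1.42.0, RLE factors, class totals alone, no low-count filter, stricter nuclei (1000 genes, 1% mitochondrial), a gate with 1 more marker, removal of top Scrublet scores (scanpy 1.11.5), no mitochondrial and ribosomal protein genes, a replicate block and leaving out each library. Keeping the shared barcodes, class totals alone and using replicates 1 and 2 alone were chosen after seeing the data. Levels (CPM) carry counting error that, among the 8 tested classes, is largest in precursors and endothelial cells, where sums held 59866 to 713353 UMIs. Sums were also small in astrocytes, at 177932 to 1351685 UMIs, and in microglia, at 298175 to 561118 UMIs.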

Additional observations from a re-analysis of the deposited data

Results flagged for a closer look

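Dnajb5 and Hsp90ab1 were picked by a scan of all members with at least 30 UMIs in a class. The rule was every CIH library above every normoxia library in a class and below in another. The share of all genes that meet this rule was not counted. Dnajb5 stood in opposite directions in the 2 brainstem neuronal classes and passed the test in neither. In excitatory neurons it had 6.94, 6.34 and 3.92 CPM in the CIH libraries, against 7.54, 7.54 and 8.02 CPM in the normoxia libraries (log2 difference −0.48 ± 0.279, adjusted p = 0.768), so every CIH library was lower, and without CIH library 3 the difference was −0.26. In inhibitory neurons it had 8.9, 9.88 and 8.93 CPM in the CIH libraries, against 6.26, 7.23 and 7.07 CPM in the normoxia libraries (log2 difference 0.41 ± 0.224, adjusted p = 0.764), so every CIH library was higher. The difference between these 2 classes was not tested by itself, and the test over all 8 classes gave an adjusted p of 0.963.

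Hsp90ab1 also stood in opposite directions between classes. In endothelial cells every CIH library was lower, with a log2 difference of −0.36 ± 0.212. Inhibitory neurons, at 0.5 ± 0.184, and oligodendrocyte precursors, at 0.55 ± 0.294, had every CIH library higher. The differences between these pairs of classes were not tested by themselves, and the test over all classes gave an adjusted p of 0.854. In endothelial cells ribosomal protein mRNA was also lower in every CIH library, at 0.956 to 1.23% under CIH and 1.25 to 1.67% in normoxia, and its part in the Hsp90ab1 difference was not tested.

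Fkbp5, of the further chaperone list and chosen after its values were seen, was the only gene of either list whose difference between CIH and normoxia varied among classes (edgeR adjusted p = 0.00834). It had 61.3, 66.1 and 197.6 CPM under CIH in oligodendrocytes, against 21.9, 18.2 and 37.7 CPM in normoxia (log2 difference 2.06 ± 0.463, adjusted p = 0.506). In microglia the log2 difference was 1.1 ± 0.27. It was 0.25 ± 0.13 in inhibitory and 0.4 ± 0.149 in excitatory neurons. Every CIH value was the higher in these 4 classes. Without CIH library 3 these log2 differences were 1.28 in oligodendrocytes, 0.64 in microglia, 0.21 in inhibitory and 0.23 in excitatory neurons. Without normoxia library 1 or 2 the adjusted p was 0.429 and 0.409, and without CIH library 3 it was 0.0257.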

How the results depend on the processing

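No member was called between CIH and normoxia under DESeq2, RLE factors, stricter nuclei, the stricter gate, removal of top Scrublet scores, kept shared barcodes or any left-out library. Exceptions were replicates 1 and 2 alone, with 4 members in all nuclei (Hspa5, Dnajb5, Hspa8 and Hsp90aa1) and 0 in any class, and no low-count filter, with 2 in excitatory (Hspa8 and Hsp90aa1) and 4 in inhibitory neurons (Dnaja1, Hspa8, Hsp90aa1 and Hsp90ab1). Over all genes in all nuclei, DESeq2 called 237 genes and replicates 1 and 2 alone 3486, against 1, and class-by-treatment calls were 231 without the filter and 361 with replicates 1 and 2 alone, against 22. With replicates 1 and 2 alone 1 member, Dnajb9, was called in that class-by-treatment test. These libraries are the close pairs (chi-square per gene 2.56 under CIH and 2.51 in normoxia), so the spread in such fits may be technical. Among them Hspa5 was lower under CIH in all nuclei, and Dnajb5, Hspa8 and Hsp90aa1 were higher. In granule neurons, more frequent in CIH libraries 1 and 2, Hspa5 was called lower and Dnajb5 higher than in other classes, and Hspa8 and Hsp90aa1 were not called. The part of this mix was not tested.

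The deviations of same-numbered libraries had weak positive correlations between the groups (r = 0.066, 0.173 and 0.191). Library 3 of either group correlated negatively with libraries 1 and 2 of the other, at −0.186 to −0.076. The main fits of CIH against normoxia had no replicate block. With the replicate block 0 members were called, and all-gene calls were 54 in oligodendrocytes, 24 in granule neurons, 12 in astrocytes, 10 in inhibitory neurons and 8 in microglia. CIH library 1 correlated best with normoxia library 2, and every other library with its own number.

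Leaving out a library moved Hspa8 between −0.08 and 0.89 in astrocytes, −0.2 and 0.64 in granule neurons, −0.35 and 0.68 in microglia, −0.5 and 0.85 in precursors, and −0.03 and 0.78 in oligodendrocytes. Hsp90aa1 moved between −0.28 and 0.7 in microglia. Hsp90ab1 moved between −0.000269 and 0.6 in all nuclei, −0.2 and 0.54 in astrocytes, −0.21 and 0.43 in granule neurons, −0.03 and 0.57 in excitatory neurons, −0.04 and 0.45 in microglia, and −0.11 and 0.35 in oligodendrocytes. All the negative ends are without CIH library 3. With replicates 1 and 2 alone Hspa8 was −0.11 in granule neurons and −0.00301 in microglia, Hsp90aa1 −0.03 in microglia, and Hsp90ab1 −0.16, −0.06 and −0.08 in astrocytes, granule neurons and oligodendrocytes. The cause was not tested.

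Between classes, 85 of 149 calls of members held under every alternative. Member calls with a library left out ranged from 7 to 14 in astrocytes, 14 to 18 in endothelial cells and 1 to 5 in precursors. With replicates 1 and 2 alone they were 4, 11 and 1. With class totals alone 4 oligodendrocyte calls turned, Hspd1 (−0.04), Atf6 (−0.03), Hspa8 (−0.03) and Manf (−0.02), where that scaling moved all genes down. The stricter gate put the ER sum difference at −30.5 CPM in excitatory neurons, against −26.6 CPM, and at −20.0 CPM in granule neurons, against −37.7 CPM. Depth limits precursors most, with 3 members tested under CIH.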

Other observations

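Fibroblasts and mural cells had too few nuclei in some libraries for a test (10 to 61 and 9 to 128 per library), and their levels are given as values. Class sums held only 18776 to 128606 UMIs in fibroblasts and 12022 to 192769 UMIs in mural cells. Values of single genes there thus rest on few UMIs in most libraries. Hspb1 was also detected in other cells of the vessel wall: mural cells had 61.5, 110.5 and 67.4 CPM under CIH and 83.2, 0.0 and 157.5 CPM in normoxia, and fibroblasts 0.0, 18.1 and 23.3 CPM under CIH and 78.5, 0.0 and 93.7 CPM in normoxia. Endothelial markers summed to 478.8 to 529.1 CPM under CIH and 249.5 to 472.6 CPM in normoxia in mural cells. The part of endothelial RNA in these Hspb1 values was not tested. Bag3 averaged 43.2 ± 45.3 CPM in mural cells and 61.5 ± 44.1 CPM in fibroblasts (SD, n = 6). The ER sum averaged 878.6 ± 122.0 CPM in fibroblasts and 872.4 ± 136.0 CPM in mural cells, between the endothelial and astrocyte means. Edem1, the ER member with the largest log2 difference between microglia and the other classes, averaged 11.6 ± 13.7 CPM in fibroblasts and 8.73 ± 15.1 CPM in mural cells.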
